A study of Mus musculus with 4 samples.

Results

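Integrins are the cell-surface receptors that hold cells to the extracellular matrix and to each other, and laminins are the trimeric glycoproteins of basement membranes to which several integrins bind. Both families were compared in RNA from marrow stromal cells of mice aged 3 months (mature) and 24 months (elderly). Their genes were taken by symbol alone, with no measured value: Itga genes followed by a number or by d, e, l, m, v or x, Itgb1 to Itgb8, and the numbered Lama, Lamb and Lamc genes. The files held 37 such genes, 26 for integrin chains and 11 for laminin chains, among 34312 genes in all. Each gene's value is the sum of the deposited read counts of its Ensembl transcripts.

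Lin-LEPR+ cells carry the leptin receptor and lack Ter119, CD31 and CD45, the surface markers of erythroid, endothelial and blood cells used to gate them out. The methods describe them as sorted from enzymatically digested marrow of femurs and tibiae, whereas the labels describe the starting material only as whole marrow. There were 4 libraries, 2 from mature and 2 from elderly animals, taken here as poly(A) RNA. The methods describe poly(A) selection for all samples but some processed as total RNA, under names that no sample title here carries. All animals were C57Bl/6 with a WT genotype (male, per the methods) and received no treatment. The methods describe RNA of 3 or 4 mice combined in each group, whereas each sample title names a single mouse. Whether a group is a library or an age is not stated. The p-values therefore measure only the spread between the 2 libraries of an age. The replicate number (mature 1, mature 2, elderly 1, elderly 2) is the one in the sample label.

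An integrin is a pair of 1 alpha and 1 beta chain, and the pair sets which ligand is bound: collagens, laminins, the RGD motif of matrix proteins and latent TGF-beta, or counter-receptors on other cells. A laminin is a trimer of 1 alpha, 1 beta and 1 gamma chain that assembles into a sheet with nidogens, collagen IV and perlecan. In marrow, stromal cells that surround sinusoids and arterioles lay down laminin, and blood cells carry their own integrins, among them the beta2 and beta7 families of leukocytes and the fibrinogen receptor of platelets.

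The libraries held 11930137, 11730849, 10472117 and 15650518 counts (mature 1, mature 2, elderly 1, elderly 2). Lepr itself had 74183, 65727, 45713 and 87711 counts, and the stromal chemokine Cxcl12 had 135489, 159086, 79956 and 141618. The summed level of 14 LEPR+ stromal markers was 42850 and 43170 CPM (counts scaled to the normalized library size) in mature libraries and 30800 and 39400 in elderly ones, and 0 of the 14 passed the test of age described next (edgeR; 2 at an unadjusted p under 0.05, and 0 by DESeq2 and by the exact test). Ptprc, which encodes CD45, had 4, 1, 12 and 8 counts, on only 152 bases that could be counted. Skeletal muscle and epithelial marker lists summed to at most 3.26 CPM in any library, with Myod1 (1854 countable bases) and Myf5 (2083) at 0. The libraries stood apart in blood-cell content within an age, since 13 platelet markers summed to 33.0 CPM in mature replicate 1 and 285.5 CPM in mature replicate 2. Fewer cells of a type and less RNA per cell cannot be told apart in such bulk samples.

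The ages were compared across all genes with edgeR's quasi-likelihood test (edgeR QL), with Benjamini-Hochberg (BH) adjustment over the 21402 genes whose counts summed to more than 2. Of the 37 genes, 32 entered the test, 4 rose in elderly libraries (Itgb8, Itga2, Lama1 and Itgb2) and 1 fell (Lama3). Over all genes tested, 2.74% were called, 2.29% higher and 0.449% lower, and of the genes with a mean of at least 1 CPM, 4.05%. Both elderly libraries lay above both mature ones for 14 of the 32 genes and below them for 5, where the shares over all genes tested were 23% and 18%, or 41% in either direction. The 14 include Itgb6, Itgal and Itgae, which entered the test only through their elderly counts, and Itgam, with 3 counts or fewer in each mature library. The count of 14 was therefore not read as a result. An exact permutation test of 2 libraries against 2 cannot go below p = 0.333, so each p-value here rests on the spread shared across genes. Without elderly replicate 2 the fit called 0 of 20631 genes (edgeR QL, lowest BH-adjusted p = 0.6; 1643 genes at an unadjusted p under 0.05), where the spread comes from the mature pair alone and the lone elderly library is assumed to vary like it. The fit without elderly replicate 1 has the same limit and called 64 genes higher and 9 lower.

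All 25621 transcripts that share every exonic base with another transcript had 0 counts throughout, so only bases that belong to a single transcript are called countable here. Itga7 had no countable base and Itgax had 22, and neither had a count. In all, 12 of the 37 genes had fewer than 1000 countable bases, so their low counts were not read as low expression. Integrin and laminin genes were ranked against each other only per countable kilobase. In the other gene lists, the most abundant gene is the one with the most counts, which also depends on its countable bases.

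**Figure D1:**
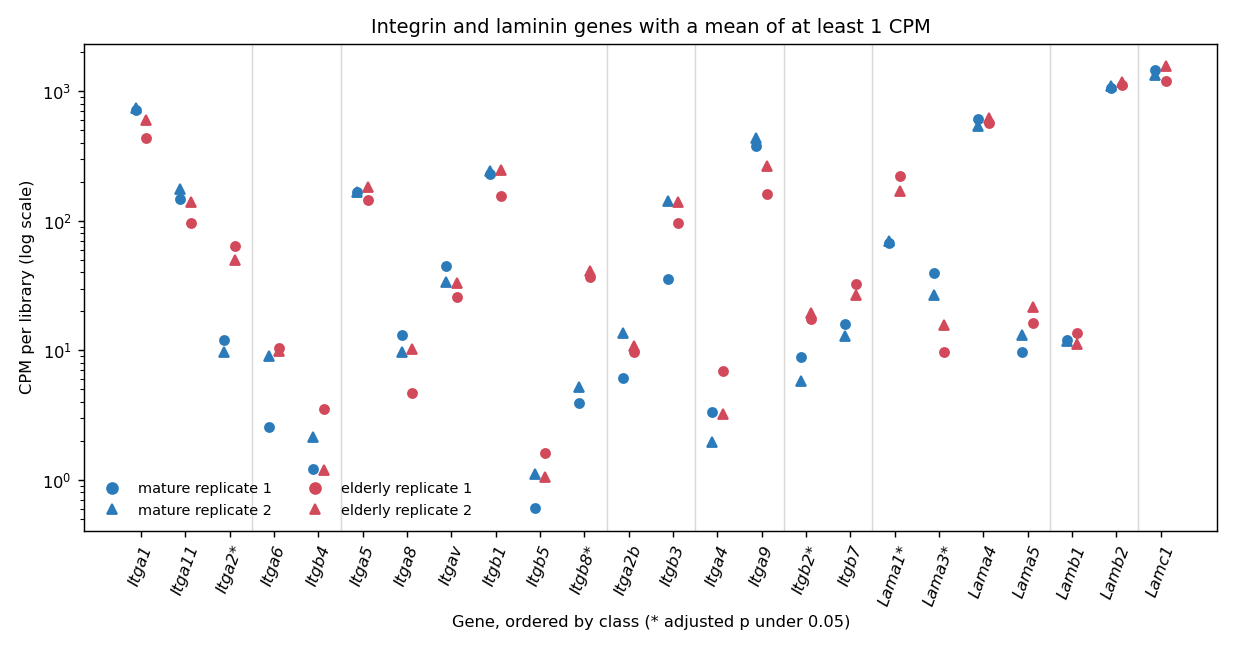
Level of the reported integrin and laminin genes with a mean of at least 1 CPM, in CPM on a log axis, with 1 point per library (blue, mature; red, elderly; circle, replicate 1; triangle, replicate 2). Genes are ordered by class with vertical lines between classes, and an asterisk marks the 5 genes with an adjusted p under 0.05. CPM is not divided by length, so heights are compared between libraries and not between genes.

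The beta8 chain showed the largest change among the 5 called genes. Itgb8 pairs with the alpha v chain to form a receptor that binds latent TGF-beta and allows its activation. Itgb8 had 46 and 61 counts in mature libraries and 412 and 624 in elderly ones, which is 3.96, 5.23, 36.98 and 41.1 CPM. Both elderly libraries lay far above both mature ones. The difference was 3.09 on the log2 scale, or 8.49-fold (SE 0.28, n = 2 libraries per age, edgeR QL, BH-adjusted p = 0.000154). Of the counts, 93.44% fell on 1 coding transcript of 14 exons on the minus strand of chr12:120396495-120477275 (mm9). It has 6440 countable bases of 8403, of which 5095 lie in the 3′UTR and 1344 are coding. Tested as a transcript, it differed by 3.21 on the log2 scale (edgeR QL, BH-adjusted p over 42413 transcripts = 4.46e-06), where 1.66% of all transcripts tested were called. A retained-intron transcript of the gene had 2, 4, 32 and 20 counts and rose by 2.99 on the log2 scale (edgeR QL, BH-adjusted p = 0.0431). Without elderly replicate 2 the gene's difference was 3.01 with a BH-adjusted p of 0.6 (edgeR QL).

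The letters upstream of the 2 genes with the largest change are shown here, Itgb8 from the NCBIM37 genome (chr12:120477276-120477575, minus strand, the 300 bases before the GENCODE M1 start) and Itga2 from RefSeq's promoter table (GRCm38.p6, chr13:114932051-114932350, minus strand, 250 bases before to 50 after the RefSeq start). Capitals mark matches to the GC box GGGCGG and the CCAAT box CCAAT, each searched on both strands.
Itgb8: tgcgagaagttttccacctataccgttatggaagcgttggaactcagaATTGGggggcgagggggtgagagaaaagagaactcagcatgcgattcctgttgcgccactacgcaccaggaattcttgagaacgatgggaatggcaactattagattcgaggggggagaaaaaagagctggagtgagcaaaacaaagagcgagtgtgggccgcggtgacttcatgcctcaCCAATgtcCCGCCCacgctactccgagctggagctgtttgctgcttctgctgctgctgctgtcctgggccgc
Itga2: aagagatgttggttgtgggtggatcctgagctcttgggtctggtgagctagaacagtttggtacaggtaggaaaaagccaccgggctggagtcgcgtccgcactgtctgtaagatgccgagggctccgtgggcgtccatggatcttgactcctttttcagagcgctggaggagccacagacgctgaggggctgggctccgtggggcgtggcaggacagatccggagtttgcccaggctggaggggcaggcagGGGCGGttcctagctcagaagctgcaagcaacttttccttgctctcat
The Itgb8 window held a GC box on the minus strand 64 bases before the start, and CCAAT boxes 72 bases (plus strand) and 252 bases (minus strand) before it, counted to the first base of each match. The Itga2 window held a GC box from position 3 after the start and no CCAAT box. Neither held a TATA box (TATAAA), an AP-1 site (TGACTCA) or the PU.1 core GAGGAA. These motifs are common: of 32851 mouse promoters of 300 bases in the RefSeq table, 35.7% held a GC box, 37.4% a CCAAT box, 13.6% a TATA box, 5.2% an AP-1 site and 28.3% the PU.1 core. Those windows run from 250 bases before to 50 after the RefSeq start, as the Itga2 window does and the Itgb8 window does not. The annotations place the starts differently, with the RefSeq start of Itgb8 526 bases inside the counted transcript and that of Itga2 59 bases upstream of the GENCODE start. Promoter rows were found for 23 of the 37 genes.

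Among the collagen-binding alpha chains, Itga2 rose while the more abundant Itga1 and Itga11 did not pass the test. All of them pair with the beta1 chain, and Itga2 is the collagen receptor chain known from platelets, epithelia and some lymphocytes. Itga2 had 141 and 114 counts in mature libraries and 718 and 751 in elderly ones (12.1, 9.77, 64.4 and 49.5 CPM). The ages did not overlap, and the difference was 2.38 on the log2 scale, or 5.20-fold (SE 0.26, n = 2 libraries per age, edgeR QL, BH-adjusted p = 0.000634). The gene has 1 annotated transcript, of 30 exons on the minus strand of chr13:115626124-115722249 (mm9), and all of its 4214 bases were countable. Without elderly replicate 2 the difference was 2.56 with a BH-adjusted p of 0.6 (edgeR QL). Platelet markers summed to 33.0, 285.5, 131.9 and 212.1 CPM (0 of 12 called by edgeR, by DESeq2 or by the exact test, and 0 at an unadjusted p under 0.05), and the part of platelets in the Itga2 values was not tested.

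Itga1, a receptor chain for collagen IV and collagen I, stood at 712 and 740.5 CPM in mature and 436 and 600.3 CPM in elderly libraries. Both elderly values were lower, with a difference of -0.49 (log2, SE 0.21, edgeR QL, BH-adjusted p = 0.387). Itga11, a fibrillar collagen receptor chain of mesenchymal cells, stood at 147, 175, 96.0 and 140.5 CPM, again without overlap of the ages, and differed by -0.44 (log2, SE 0.23, edgeR QL, BH-adjusted p = 0.515). Itga10, the chain best known from cartilage, had 0, 0, 1 and 1 counts on 151 countable bases and was not tested. By summed level these 4 genes held 870.8 and 925 CPM in mature libraries and 596.6 and 790.4 CPM in elderly ones.

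**Figure D2:**
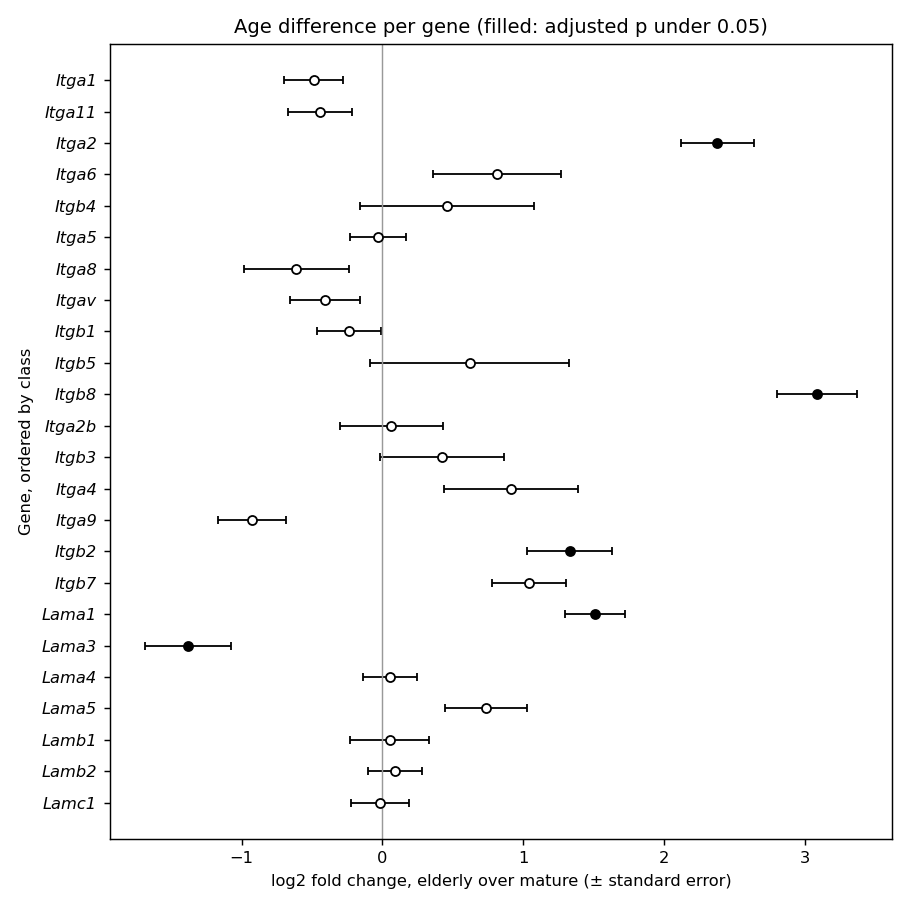
Difference between ages for the reported integrin and laminin genes with a mean of at least 1 CPM, as log2 fold change of elderly over mature (x axis) with bars of 1 standard error, genes ordered by class. Filled points mark an adjusted p under 0.05, and only Itgb8, Itga2, Itgb2 and Lama1 are filled to the right of 0 and Lama3 to the left.

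The common beta1 chain and the RGD-binding alpha chains, which bind fibronectin, vitronectin and related ligands, did not pass the test. Itgb1 stood at 232 and 242 CPM in mature and 156 and 247 CPM in elderly libraries, with elderly replicate 1 the low one (log2 difference -0.24, SE 0.23, edgeR QL, BH-adjusted p = 0.789). Itga5, the fibronectin receptor chain, stood at 168 in both mature libraries and at 145 and 183 CPM in elderly ones (log2 difference -0.03, SE 0.20, edgeR QL, BH-adjusted p = 0.978). The ages overlapped for both chains. Itgav, the partner of the beta8 chain, stood at 44.5, 33.9, 25.9 and 33.1 CPM and so was lower in both elderly libraries, by 0.41 on the log2 scale (log2 difference -0.41, SE 0.25, edgeR QL, BH-adjusted p = 0.619). Its most counted transcript has only 108 countable bases of 7054, so Itgav and Itgb8 were not ranked against each other. Itga8 averaged 11.5 and 7.44 CPM in mature and elderly libraries and Itgb5 0.858 and 1.34 CPM. Itgb6, the epithelial partner of alpha v, had 0, 0, 7 and 2 counts.

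The chains of the laminin-binding integrins were scarce in the counts, and little of their coding transcripts could be counted, so this was not read as low expression. Itga6 had 30, 105, 116 and 151 counts, and 91.29% of them fell on a noncoding processed transcript of 3 exons. A coding Itga6 transcript with 1288 countable bases had 19, 3, 0 and 4 counts, and its other coding transcripts had no countable base. For the Itga6 gene, mature replicate 1 was the low library, and the log2 difference of 0.81 did not pass (SE 0.45, edgeR QL, BH-adjusted p = 0.572). Without mature replicate 2 it was 1.93 (edgeR QL, BH-adjusted p = 0.00501). Itga3 had 8, 6, 10 and 12 counts and Itgb4, the hemidesmosome chain, had 14, 25, 39 and 18, on 819 and 647 countable bases.

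Itga9, whose pair with beta1 binds tenascin-C, osteopontin and VCAM1, was among the most abundant integrin chains and lay lower in both elderly libraries without passing the threshold. It had 4383 and 5059 counts in mature libraries and 1794 and 4014 in elderly ones (377, 433, 161 and 265 CPM). The difference was -0.93 on the log2 scale (SE 0.24, edgeR QL, BH-adjusted p = 0.0673), and it passed under 6 of 14 alternative settings. The fits without 1 library gave values from -1.33 to -0.63. The summed LEPR+ stromal markers were also lower in both elderly libraries, and lowest in elderly replicate 1, as Itga9, Itga1 and Itga11 were. Osteoblast markers went both ways: Ibsp fell, 2 of the 13 rose (Phex and Col1a1), and the 12 markers other than Ibsp summed to 635, 703, 976 and 1063 CPM. The part of these cells in the differences was not tested. Itga4, the other chain of this class, had 39, 23, 77 and 49 counts, of which 53.19% fell on a processed transcript and the rest on other processed transcripts. Its coding transcripts had 0 and 9 countable bases and 0 counts, so its coding RNA was hardly measured.

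Of the leukocyte chains, Itgb2 and Itgb7 were higher in both elderly libraries than in either mature one, as were 23% of all genes tested, and Itgb2 passed. Itgal and Itgae entered the test only through their elderly counts, and Itgam had few counts at either age. The order of the ages was therefore not read as a result for these chains. Itgad and Itgax did not enter the test. Itgb2 (CD18) is the beta chain shared by the leukocyte adhesion receptors, whose alpha chains are Itgal, Itgam, Itgax and Itgad. Itgb2 had 103 and 68 counts in mature and 196 and 293 in elderly libraries (8.86, 5.83, 17.6 and 19.3 CPM). The ages did not overlap, and the difference was 1.33 on the log2 scale, or 2.51-fold (SE 0.30, n = 2 libraries per age, edgeR QL, BH-adjusted p = 0.0354). Itgb2 was counted on 422 bases in all, 340 of them on the 2970-base transcript of 16 exons at chr10:76992997-77028431 (mm9, plus strand) that held 99.09% of the counts. The call was lost without mature replicate 2 (log2 difference 1.02, BH-adjusted p = 0.191), without elderly replicate 1 (1.38, BH-adjusted p = 0.27) and without elderly replicate 2 (1.26, BH-adjusted p = 0.6; edgeR QL).

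Itgb7, the beta chain of the gut-homing receptor of lymphocytes and of the pair with Itgae, had 185, 150, 360 and 409 counts (15.9, 12.9, 32.3 and 27.0 CPM). Both elderly libraries were higher, by 1.04 on the log2 scale (SE 0.26, edgeR QL, BH-adjusted p = 0.0548), and 8 of 14 alternative settings put it past the threshold, among them the fit without mature replicate 1 (1.20, BH-adjusted p = 0.0356). The alpha partners were near the counting floor. Itgal had 0, 2, 6 and 25 counts, Itgam 2, 1, 5 and 10, Itgae 1, 0, 16 and 5, and Itgad 2, 0, 0 and 0. No fold is given for these genes because both mature libraries held 3 counts or fewer. By summed level the 7 leukocyte chains held 25.2 and 18.9 CPM in mature libraries and 52.3 and 48.9 CPM in elderly ones.

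Markers of blood cells moved with these chains. Over all genes tested, 2.29% were called higher and 0.449% lower. These shares apply to every marker list here, and a list with a lone call was not read as a result. A list of 9 genes of blood cells as a whole summed to 153.8 and 119.4 CPM in mature and 411 and 355.2 CPM in elderly libraries, with 3 of the 9 called higher (Cd53, Rac2 and Fermt3). Of 15 neutrophil markers tested, 9 rose (1273 to 2236 CPM in sum in mature, 4713 to 4821 in elderly libraries), and of 13 erythroid markers, 10 rose (166.7 to 376.8 CPM against 1161 to 1191 CPM). The most abundant of them, S100a8 and Slc4a1, had 8886, 5653, 19220 and 20902 counts and 1824, 526, 4779 and 8628 counts. Monocyte, macrophage and dendritic cell markers summed to 33.6, 31.9, 63.3 and 102.5 CPM with 4 of 15 called higher. T and NK cell markers summed to 4.90, 5.91, 25.5 and 13.4 CPM with 1 of 10 called higher. B-lineage markers summed to 47.3, 35.8, 116 and 71.0 CPM with 1 of 12 called higher. At 0 in every library were Cd79b and Cd22 of the B-lineage list, Fcgr1 and Cd209a of the monocyte list and Klrb1c of the T and NK list. Their countable bases are not given here, so these values, like those of Tek and Robo4 below, were not read as absent expression. Mature replicate 2 was the lowest library for Itgb2, for the list of blood cells as a whole and for neutrophil and erythroid markers alike. Outside these lists, endothelial markers summed to 37.8, 50.3, 62.5 and 68.1 CPM (1 of 12 called higher, Flt4, with Tek and Robo4 at 0), Schwann cell markers to 90.8, 74.2, 154.5 and 147.1 CPM (1 of 9 called higher, Mbp) and plasma cell markers to 164.5, 131.9, 191.3 and 189.5 CPM (2 of 7 called higher, Igj and Prdm1). Smooth muscle and pericyte markers summed to 2860, 3050, 2449 and 3877 CPM (1 of 9 called higher, Acta2), and chondrocyte markers to 101.3, 156, 111 and 102.7 CPM (Col2a1 called higher, Acan and Col10a1 lower, of 9). Eosinophil, basophil and mast cell markers summed to 331.3, 35.9, 166.3 and 176.2 CPM (0 of 10 called by edgeR, 4 at an unadjusted p under 0.05, 0 by DESeq2 and 1 by the exact test). The part of these cell types in the values of Itgb2, Itgb7, Itgb8, Itga2 and Lama1 was not tested.

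**Figure D3:**
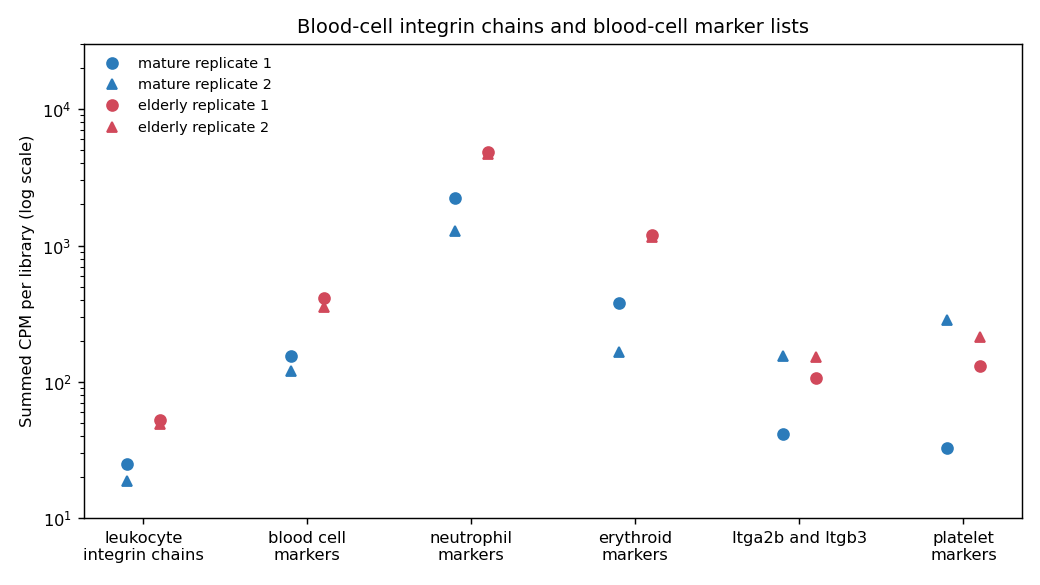
Summed level of the blood-cell integrin chains beside blood-cell marker lists, in CPM on a log axis, with 1 point per library. The leukocyte chains, the markers of blood cells as a whole, of neutrophils and of erythroid cells separate by age, whereas the platelet chains Itga2b and Itgb3 and the platelet markers are lowest in mature replicate 1 and overlap between the ages.

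The platelet chains set mature replicate 1 apart from the other libraries and did not pass the test of age. Itgb3, which pairs with Itga2b in the platelet fibrinogen receptor and with alpha v elsewhere, had 412, 1657, 1077 and 2133 counts (35.4, 142, 96.7 and 140.7 CPM). Itga2b stood at 6.11, 13.5, 9.69 and 10.8 CPM. Mature replicate 1 was the lowest library for both chains and for the platelet markers, whose most abundant gene Ppbp had 28, 2057, 653 and 1855 counts. The ages overlapped, and neither Itgb3 (log2 difference 0.42, SE 0.44, edgeR QL, BH-adjusted p = 0.818) nor Itga2b (0.06, SE 0.37, edgeR QL, BH-adjusted p = 0.976) passed. Itgb3 turned on that choice of library: the log2 difference was 1.70 without mature replicate 2 (BH-adjusted p = 0.000534) and -0.26 without mature replicate 1 (BH-adjusted p = 0.904; edgeR QL). The share of Itgb3 that came from platelets was not tested.

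Among the laminin alpha chains, Lama1 rose and Lama3 fell, and the most abundant one, Lama4, did not pass the test. Lama1 is the alpha chain of the laminin of early embryonic and some epithelial basement membranes. It had 779 and 818 counts in mature libraries and 2458 and 2579 in elderly ones (67.0, 70.1, 221 and 170.1 CPM). The 2 mature libraries lay close together and both elderly ones above them, with a difference of 1.51 on the log2 scale, or 2.85-fold (SE 0.21, n = 2 libraries per age, edgeR QL, BH-adjusted p = 0.00212). The gene has 1 annotated transcript of 63 exons at chr17:68046605-68171985 (mm9, plus strand), and all of its 9518 bases were countable. Without elderly replicate 2 the difference was 1.69 with a BH-adjusted p of 0.6 (edgeR QL).

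Lama3, another laminin alpha chain, had 464 and 312 counts in mature libraries and 108 and 240 in elderly ones (39.9, 26.7, 9.69 and 15.8 CPM). Both elderly libraries were lower, with a difference of -1.38 on the log2 scale, or 2.60-fold lower (SE 0.31, n = 2 libraries per age, edgeR QL, BH-adjusted p = 0.0305). Of its counts, 99.38% fell on the long coding transcript of 75 exons and 10343 bases, on 4989 coding bases that the shorter transcripts lack. A shorter coding transcript of 5545 bases had 65 countable bases and 7 counts in all, and a further one had none, so the change was measured for the long form only. The call was lost without mature replicate 1 (log2 difference -1.06, BH-adjusted p = 0.0638), without elderly replicate 1 (-1.09, BH-adjusted p = 0.35) and without elderly replicate 2 (-1.78, BH-adjusted p = 0.6; edgeR QL). Lamb3, a beta chain that assembles with Lama3, had 0, 0, 1 and 0 counts on 352 countable bases. The 8 epithelial markers summed to 0.172, 0.514, 1.26 and 0.659 CPM, with 0 called of 4 tested and Krt5, Krt14 and Krt19 (417, 696 and 937 countable bases) at 0, and the part of epithelial cells in the Lama3 values was not tested.

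Lama4, the alpha chain of the laminins around blood vessels and in mesenchyme, had 7147, 6328, 6394 and 9496 counts (615, 542, 574 and 626 CPM). The ages overlapped and the difference was 0.05 (log2, SE 0.19, edgeR QL, BH-adjusted p = 0.959). Lama5, its companion in vessel walls and epithelia, stood at 9.63, 13.02, 16.2 and 21.5 CPM on 725 countable bases. Both elderly values were higher, by 0.74 (log2, SE 0.29, edgeR QL, BH-adjusted p = 0.309). Lama2 had 2, 0, 7 and 1 counts on 18 countable bases.

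Of the beta and gamma chains with which the alpha chains assemble, Lamb2 and Lamc1 had the most counts, and none passed the test. Lamb2 stood at 1063 and 1096 CPM in mature and 1111 and 1186 CPM in elderly libraries (log2 difference 0.09, SE 0.19, edgeR QL, BH-adjusted p = 0.935). Lamc1, the gamma chain of most laminins, stood at 1475, 1327, 1202 and 1567 CPM (log2 difference -0.02, SE 0.21, edgeR QL, BH-adjusted p = 0.989). Lamb2 was slightly higher in both elderly libraries, and for Lamc1 the elderly libraries were both the lowest and the highest. Lamb1 stood at 12.04, 11.9, 13.6 and 11.2 CPM, with the largest share of its counts, 40.1%, on a retained-intron transcript (log2 difference 0.05, SE 0.28, edgeR QL, BH-adjusted p = 0.975). Its longest coding transcript has only 69 countable bases of 5784, so Lamb1 was not ranked against Lamb2. Lamc3 had 2, 4, 2 and 6 counts.

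Per countable kilobase, the laminin chains Lamc1, Lamb2 and Lama4 led the 16 genes ranked at both ages. The ranking holds the 16 genes whose most counted transcript is coding with at least 1000 countable bases, a limit that was set after the values were seen. That limit leaves out Itgb1, which averaged 219.1 CPM with 99.47% of its counts on a coding transcript of 686 countable bases. Lamc1 averaged 1393 CPM on 5050 such bases, so Itgb1 would stand above Lamc1 per countable kilobase. Lamc1 stood at 275.8 ± 20.2 CPM per countable kilobase in mature and 273 ± 51.1 in elderly libraries (mean ± SD, n = 2). It was followed by Lamb2 at 191.9 ± 4.21 and 204.3 ± 9.39 and by Lama4 at 162.5 ± 13.3 and 167.9 ± 11.03. The 4 libraries of Lamc1 lay above those of Lamb2, and those of Lamb2 above those of Lama4. Itga1 (149.9 ± 5.62 and 107.5 ± 25.3) and Itga11 (106.8 ± 12.97 and 78.5 ± 21.0) were the leading integrin chains among the 16, then Itga9 (82.0 ± 8.30 and 43.1 ± 14.9) and Itga5 (38.3 ± 0.127 and 37.5 ± 6.12). From Lama4 down to Itga5, neighbours in this order overlapped over the 4 libraries. Lama1 moved from 7.20 ± 0.230 to 20.5 ± 3.75 CPM per countable kilobase, and so in elderly libraries still stood below Lama4. Itga2 moved from 2.60 ± 0.396 to 13.5 ± 2.50 and stayed below Itga1, and Itgb8 moved from 0.633 ± 0.177 to 5.68 ± 0.583. Lama3 moved the other way, from 6.65 ± 1.85 to 2.52 ± 0.898 CPM per countable kilobase. Divided by whole transcript length instead, Lamb2 took rank 1, Lamc1 rank 2, Itga1 rank 3 and Lama4 rank 4, and Itga11 dropped from rank 5 to rank 7.

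**Figure D4:**
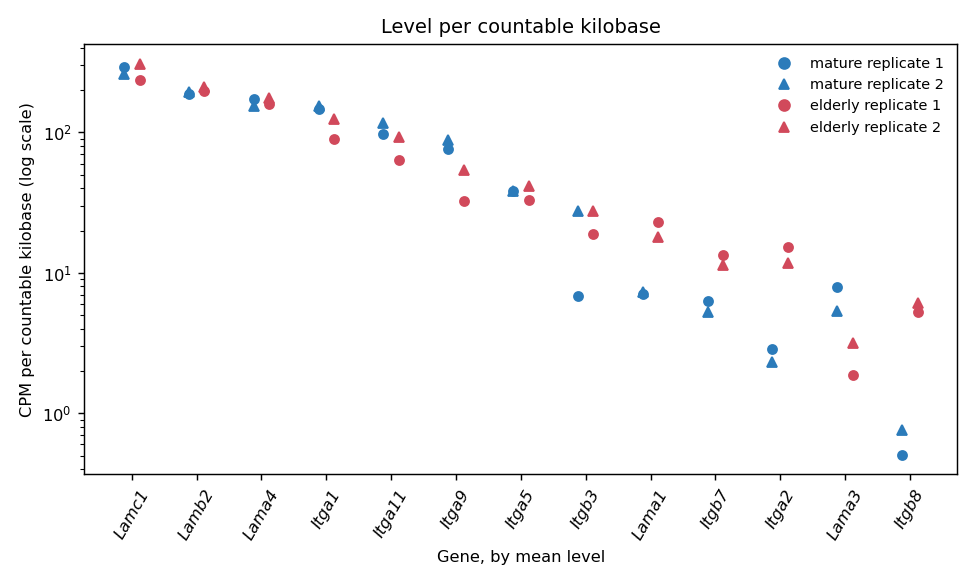
Level per countable kilobase (CPM, log axis) of the reported genes whose most counted transcript is coding with at least 1000 countable bases, ordered by mean, with 1 point per library. Among the genes drawn, the laminin chains Lamc1, Lamb2 and Lama4 and the alpha chains Itga1, Itga11 and Itga9 lead, and Itga2, Lama1 and Itgb8, which rose with age, stand lower at both ages. Itgb1 falls under the base limit and is not drawn. Itgal and Lamc3, at under 1 CPM on average, are not drawn.

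Inside the cell, talins, kindlins and their partners switch integrins on and tie them to actin. Of 35 adaptor and signalling genes tested, 2 rose and 0 fell, where 2.29% of all genes tested rose and 0.449% fell. The median log2 difference was 0.121 beside 0.017 over all genes tested. The same shares apply to the lists of ligands, latent TGF-beta genes, basement membrane partners and laminin receptors below. With so few calls, the counts were not read as a result about any of these lists. Apbb1ip, which encodes the RIAM protein that brings talin to the integrin in blood cells, had 202, 128, 695 and 1086 counts (log2 difference 2.24, SE 0.27, edgeR QL, BH-adjusted p = 0.000999). Fermt3, the kindlin of blood cells, had 324, 679, 1383 and 1520 counts (log2 difference 1.38, SE 0.30, edgeR QL, BH-adjusted p = 0.0262). Fermt3 is also in the list of blood cells as a whole given above. Apbb1ip kept its call without any library other than elderly replicate 2 (BH-adjusted p = 0.6), while Fermt3 also lost it without mature replicate 1 (log2 difference 0.95, BH-adjusted p = 0.0961) and without elderly replicate 1 (1.21, BH-adjusted p = 0.35; edgeR QL). The most abundant of the list, Tns3, a tensin that binds beta chains, had 34116, 29344, 31899 and 53203 counts (log2 difference 0.23, edgeR QL, BH-adjusted p = 0.765).

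Of 23 integrin ligands other than laminins and collagens, 2 rose and 1 fell, with a median log2 difference of -0.147. Icam1, the counter-receptor of the beta2 integrins, had 4139, 4521, 7109 and 10840 counts (log2 difference 0.86, SE 0.19, edgeR QL, BH-adjusted p = 0.0324). Thbs1, the matricellular thrombospondin, had 17075, 14292, 24750 and 50010 counts (1.04, SE 0.23, edgeR QL, BH-adjusted p = 0.0314). Ibsp, the RGD-bearing bone sialoprotein of osteoblasts, had 76638, 68911, 16087 and 50570 counts (log2 difference -1.39, SE 0.31, edgeR QL, BH-adjusted p = 0.0335). Vcam1, the ligand of the alpha4 and alpha9 chains, had 40543, 38107, 21739 and 50811 counts and overlapped between ages (-0.35, edgeR QL, BH-adjusted p = 0.678). In the fits without 1 library, each of which leaves an age with a lone library, Icam1 ranged from 0.78 to 0.93 (log2; BH-adjusted p from 0.0685 to 0.6), Ibsp from -2.11 to -0.92 (BH-adjusted p from 0.0548 to 0.6) and Thbs1 from 0.72 to 1.27 (edgeR QL, called only without elderly replicate 1, BH-adjusted p = 0.0364).

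Of 9 genes for latent TGF-beta and its binding proteins, 0 rose and 1 fell, with a median log2 difference of 0.022. Ltbp1, which tethers latent TGF-beta to the matrix, had 901, 865, 363 and 638 counts (log2 difference -1.02, SE 0.22, edgeR QL, BH-adjusted p = 0.0262). It lost the call without elderly replicate 1 (-0.87, BH-adjusted p = 0.194) and without elderly replicate 2 (-1.22, BH-adjusted p = 0.6; edgeR QL). The TGF-beta ligands did not pass: Tgfb3 had 2140, 1915, 1770 and 2949 counts (0.02, edgeR QL, BH-adjusted p = 0.986), and Tgfb1 had 664, 823, 1156 and 1275 (0.56, edgeR QL, BH-adjusted p = 0.297).

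Of 22 basement membrane partners of laminin, 1 rose and 0 fell, with a median log2 difference of 0.079. Smoc2, a calcium-binding matrix protein, had 305, 437, 571 and 1733 counts, with elderly replicate 2 far above the rest (log2 difference 1.38, SE 0.33, edgeR QL, BH-adjusted p = 0.0425), and without that library its difference was 0.69 (edgeR QL, BH-adjusted p = 0.601). Collagen IV chains and 1 of the nidogens were lower in both elderly libraries by CPM without passing. Col4a1 had 42302, 45314, 21666 and 43877 counts (-0.64, edgeR QL, BH-adjusted p = 0.234), Col4a2 16318, 17917, 7990 and 17921 (-0.63, edgeR QL, BH-adjusted p = 0.286) and Nid1 22330, 21038, 12178 and 24837 (-0.45, edgeR QL, BH-adjusted p = 0.509). Nid2, the other nidogen, had 7001, 6298, 5090 and 9689 counts and overlapped between the ages (-0.06, edgeR QL, BH-adjusted p = 0.959). Of 18 laminin receptors outside the integrins, 0 were called by edgeR QL, by DESeq2 or by the exact test, and 3 had an unadjusted p under 0.05 (edgeR QL, median log2 difference 0.016). The most abundant, Sdc2, had 7674, 6410, 6675 and 15573 counts (0.43, edgeR QL, BH-adjusted p = 0.602).

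**Figure D5:**
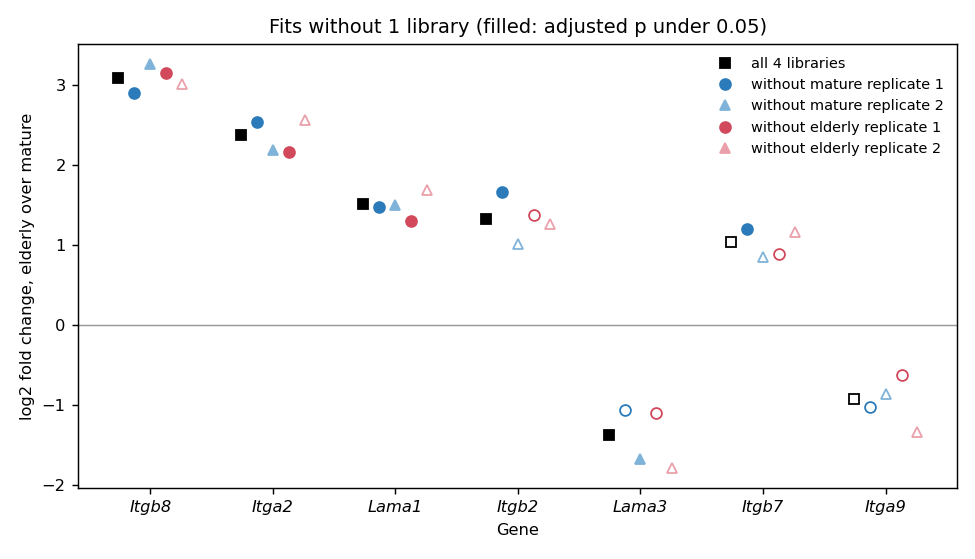
Log2 fold change of elderly over mature (y axis) for the 5 called genes and for Itgb7 and Itga9, which fell just short of the threshold, in the fit of all 4 libraries (black squares) and in each fit without 1 library. Filled symbols mark an adjusted p under 0.05. The direction is the same in every fit, and every symbol without elderly replicate 2 is open.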

How the data were processed

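The 2 mature and 2 elderly libraries, taken as poly(A) RNA, were analysed, grouped by the age in the sample labels. The authors checked reads with FASTQC, trimmed them with CutAdapt, aligned them by HISAT2 against mm9 and obtained counts from featureCounts, all in Galaxy. The deposited values are raw counts per Ensembl transcript, and neither versions nor the strand setting of the counting are given in the sources used here. Without that setting, reads of overlapping antisense genes cannot be told apart. All but 388 of 95883 transcripts were matched to GENCODE M1.

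Counts were summed per gene symbol. Genes with more than 2 counts over the 4 libraries were normalized by TMM (factors 0.975, 0.995, 1.06 and 0.969) and tested with edgeR 4.0.16 (limma 3.58.1, R 4.3.3) by its quasi-likelihood test, 2-sided, with a trended dispersion (biological coefficient of variation 0.262), a prior count of 0.125 and Benjamini-Hochberg adjustment. The threshold was an adjusted p under 0.05. The authors used edgeR's exact test at a dispersion of 0.2, and that test and DESeq2 1.42.0 were alternatives. 3 counts in a library correspond to 0.198 to 0.269 CPM, counting error only. The 2 libraries of an age differed beyond sampling noise (chi-square per degree of freedom 11.9 and 24), so each was counted as 1 replicate. On simulated data the fit called 9 of 50 genes raised 2-fold, 46 of 50 raised 4-fold and 34 of 50 lowered to 0.25 of their level. Most simulated 2-fold changes were thus missed.

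Named by rule are all called members, other members averaging at least 10 CPM, the remaining members by counts, and the called genes of the pathway lists. Tns3, Vcam1, Tgfb1, Tgfb3, Col4a1, Col4a2, Nid1, Nid2 and Sdc2 were named after their values were seen, as the most abundant of a list or as partners of members. Of the marker lists, sums, counts and some called genes are given. The members and gene lists were chosen with earlier results of these data known. Lamb4, Mzb1 and Spi1 had no matching symbol. Amino acid sequences were not used here, and 1 member is not reported here.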

Additional observations from a re-analysis of the deposited data

How the results depend on the processing

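With all 4 libraries, 4 integrin and laminin genes were called higher and 1 lower. The higher count was 1 by the exact test (dispersion fixed at 0.2), and 0 to 5 without 1 library each. The lower count was 0 under the exact test, 0 to 1 without 1 library each, and 2 under DESeq2, without a filter, by library size alone, in the robust fit, with protein-coding genes only, at an adjusted p under 0.1 and with the replicate block. In each of these fits with 2, the second gene was Itga9. Of the pathway lists, 5 genes were called higher and 2 lower. The higher count was 0 under the exact test, 9 with the replicate block and 0 to 5 without 1 library each. The lower count was 0 under the exact test, 5 without a filter, 4 in the robust fit, 5 with the replicate block, 1 over deposited transcripts and 0 to 2 without 1 library each. The cause was not tested. The exact test also ended the calls of Itga2 (2.38, adjusted p = 0.053), Lama1 (1.51, 0.445), Itgb2 (1.33, 0.666) and Lama3 (-1.38, 0.57), while Itgb8 kept its call.

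No called gene changed sign under any alternative. By library size alone the sign turned for Itga5 (0.0058) and Lamc1 (0.021), and over the most counted transcript for Itga5 (0.013) and Lamc1 (0.031). Over the 4 fits without 1 library each, values crossed 0 for Itga2b (-0.40 to 0.71), Itga5 (-0.21 to 0.11), Itgb1 (-0.61 to 0.040), Itgb3 (-0.26 to 1.70), Itgb4 (-0.51 to 1.06), Lama2 (-0.36 to 5.12), Lama4 (-0.078 to 0.15), Lamb1 (-0.11 to 0.19), Lamc1 (-0.22 to 0.14) and Lamc3 (-0.50 to 0.70). None of these 10 genes was called with all 4 libraries.

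Labels give both ages the replicate numbers 1 and 2, but same-numbered libraries did not deviate together (correlation of the replicate differences across 14261 genes 0.0446) and share only a number. With that block, 6 members were called higher and 2 lower, the added ones being Itgb7 (1.05, adjusted p = 0.00227), Itgb3 (0.70, 0.03) and Itga9 (-0.97, 0.00059). Depth was 10472117 to 15650518 counts in a library, and 2 libraries per age limit the precision; a fit without 1 library takes its spread from the other age alone.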
